A study of Mus musculus with 67 samples.

Results

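Heart and kidney of the normotensive mouse strain BPN/3J were compared across 10 arrays, 5 of heart and 5 of kidney, out of 67 arrays in the series. The members were taken by their sample titles, which name the organ and the strain. All animals in the comparison were untreated male BPN/3J mice, an inbred strain with a stated systolic pressure of 94 ± 6 mmHg (the kind of error is not given), killed at 12 weeks with CO2. The same series holds hearts and kidneys of the hypertensive strain BPH/2J and the hypotensive strain BPL/1J, and livers and aortas of all 3 strains. Frozen tissue from 5 mice per strain was homogenised, and the RNA of heart, kidney and liver went through one protocol of reverse transcription and in vitro transcription, whereas that of aorta was amplified with another kit. No label says which heart and kidney came from one mouse, so the 5 arrays of an organ were treated as separate samples and p-values measure the spread between them. In whole tissue, fewer cells of a type and less RNA per cell cannot be told apart.

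The mouse heart is built largely of cardiomyocytes, striated muscle cells whose sarcomeres contract when the ryanodine receptor releases calcium and relax when calcium is pumped back into the sarcoplasmic reticulum. They burn mainly fatty acids, and the atria secrete natriuretic peptides. The kidney is built largely of epithelial tubules: the proximal tubule takes back most filtered solutes, the loop of Henle and distal tubule set the salt gradient, and the collecting duct adjusts water, sodium and acid.

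Each array measured 38385 probe sets, of which 24478 carried 1 gene symbol, 65 carried several and 13842 were unnamed here. The deposited intensities had array medians of 25.01 to 25.64 in heart and 30.36 to 31.39 in kidney, so the organs had been scaled apart. Every array was therefore turned into ranks, and a level is given as the percentile of a probe set among all probe sets of its own array, from 0 to 100. The rank was also turned into a normal score, which is 0 at the middle of the array, and organs were compared by the difference of mean normal scores, heart minus kidney, with limma and Benjamini-Hochberg adjustment over all probe sets. A percentile includes how strongly a probe set binds its target, so a probe set was compared with itself between organs and not with other probe sets. It is also no detection call: the probe set of Gapdh, a gene that all cells use, stood at 35.4 ± 3.0 (SD, n = 5) in heart and 35.2 ± 4.0 (SD, n = 5) in kidney. Normal scores correlated at 0.9857 to 0.9877 between hearts, 0.9816 to 0.9898 between kidneys and 0.8556 to 0.8648 between a heart and a kidney, and 0 pairs of arrays were identical.

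At an adjusted p below 0.05, 13061 probe sets were higher in heart (34.0% of all) and 12426 were higher in kidney (32.4%), while 12898 were not called. A difference of 25 percentile points or more was reached by 1287 of the probe sets called in heart and 1329 of those called in kidney. With 1 probe set per gene, the one of highest mean percentile, 35.5% of 19147 named genes were higher in heart and 35.1% were higher in kidney. The median score difference over all named genes was 0.00212. A call alone was thus common, and the description below turns on the genes that also changed from the top of one array to the lower part of the other.

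A probe set was named organ-restricted when it was called, when the 5 arrays of one organ did not overlap the 5 of the other, and when its mean percentile was at least 90 in one organ and at most 50 in the other. This held for 163 heart-restricted probe sets (0.425% of all) and 228 kidney-restricted ones (0.594%). Their median percentiles were 96.7 in heart and 33.7 in kidney for the first set, and 96.2 in kidney and 30.3 in heart for the second. By 1 probe set per gene, 107 genes were heart-restricted (0.559% of named genes) and 172 were kidney-restricted (0.898%). The limits cut a continuous range. Apoa2 (49.68 in kidney) lay just inside the lower limit of the heart set and Gata6 (50.29) just outside, whereas Cpxm2 (90.2 in heart) lay just inside the upper limit and Kcnj11 (89.89) just outside. For the kidney set, Mettl7b (49.95 in heart) was inside and Slc5a10 (50.04) outside by the lower limit, and Cyp2d12 (90.003 in kidney) was inside and Igsf5 (89.97) outside by the upper limit.

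**Figure D1:**
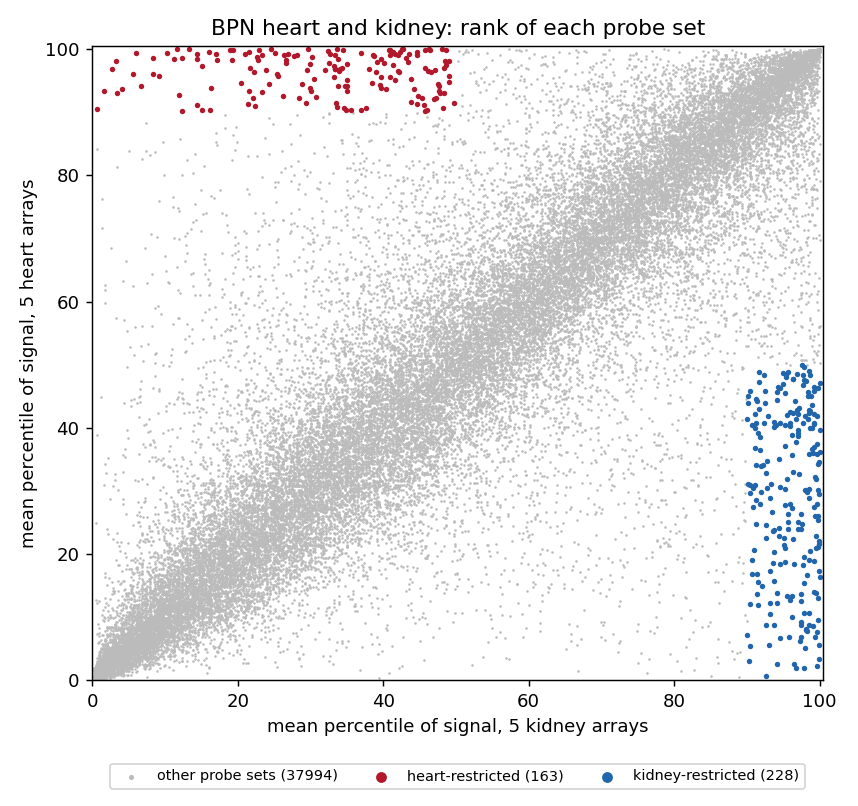
Mean percentile of each probe set over 5 kidney arrays (x axis) and 5 heart arrays (y axis), with 163 heart-restricted probe sets in red and 228 kidney-restricted probe sets in blue. Most probe sets follow the diagonal, and the restricted sets fill the corners above 90 in one organ and below 50 in the other.

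Counts in the heart lists stand beside 35.5% of all named genes called higher in heart and 0.559% heart-restricted. Of the heart lists, the one of the contractile apparatus had the largest median difference between the organs. Of 23 measured members of a sarcomere list, 22 were higher in heart, 1 probe set was higher in kidney, and 15 were heart-restricted. The list's median score difference was 3.13. Tnni3, the cardiac inhibitory troponin, had intensities of 15157, 15589, 15474, 15602 and 15582 in the 5 hearts, where it ranked between 10 and 11 from the top of each array. In the kidneys Tnni3 stood at percentiles 13.5, 13.6, 13.6, 9.7 and 16.1. The organs were far apart and the hearts were nearly identical, and the score difference was 4.58 (SE 0.047, limma adjusted p = 2.95e-13).

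Both ventricular myosin light chains followed the same pattern. The regulatory chain Myl2 ranked between 2 and 5 from the top of every heart array, and its kidney percentiles were 32.0, 34.7, 33.4, 35.1 and 33.4. The essential chain Myl3 ranked 8 to 9 in the hearts and stood at 24.3, 29.3, 22.6, 20.0 and 26.7 in the kidneys. Both score differences were 4.22, with SE 0.046 for Myl2 and 0.049 for Myl3. Tnnt2, the tropomyosin-binding troponin of heart muscle, had kidney percentiles of 21.9, 19.2, 17.9, 19.7 and 17.8 against 99.9 in every heart (difference 4.12, SE 0.028). The atrial chain Myl7 (99.9 ± 0.022 in heart, 45.7 ± 1.5 in kidney, SD, n = 5) and cardiac actin Actc1 (42.6 ± 4.8 in kidney) were restricted as well. Actc1 ranked 4 to 6 from the top of the heart arrays.

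The myosin heavy chains were higher in heart without being restricted. Myh6, the fast alpha chain of the adult mouse ventricle, ranked 4 to 6 in the hearts, but its kidney percentiles were 56.9, 55.3, 57.5, 57.5 and 59.3. Myh7, the slow beta chain, stood at 85.8, 82.6, 83.9, 84.3 and 82.5 in the hearts and at 25.9, 24.8, 27.2, 24.3 and 28 in the kidneys, a difference of 1.63 (SE 0.033). The groups did not overlap for either gene. The exception in the list was Tpm1, a tropomyosin made in many cells in several splice forms. Its probe set of highest mean was slightly higher in kidney (93.6 ± 0.26 in heart, 96.0 ± 0.29 in kidney, difference -0.23, adjusted p = 3.58e-06), whereas its other probe set went the opposite way (100.0 in heart, 11.6 ± 3.7 in kidney, difference 4.55, adjusted p = 2.46e-11).

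Calcium handling genes were higher in heart for 11 of 12 measured members, with 5 restricted and a median difference of 1.78. Ryr2, the cardiac calcium release channel, stood at 99.4, 99.4, 99.3, 99.2 and 99.4 in the hearts and at 28.1, 19.0, 13.2, 21.8 and 22.9 in the kidneys (difference 3.29, SE 0.082). Sln, the atrial inhibitor of the calcium pump, stood at 99.6, 99.6, 99.5, 99.6 and 99.5 in the hearts and at 16.0, 17.8, 14.1, 17.2 and 14.8 in the kidneys. Pln, the ventricular inhibitor of the same pump, was at 46.6, 49.4, 49.7, 48.5 and 46.4 in the kidneys and at 100.0 in every heart. Casq2, which stores calcium inside the reticulum, had kidney percentiles from 39.3 to 45.1 and heart percentiles from 99.4 to 99.5. The pump itself was the member that was not called: Atp2a2 stood at 99.2 ± 0.1 in heart and 99.2 ± 0.1 in kidney (SD, n = 5, adjusted p = 0.731). This probe set is near the top of every array, where ranks leave little room for a difference.

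Of 16 measured channels and junction genes, 15 were higher in heart, but only Kcnip2 was restricted by these limits. Kcnip2, the partner of the transient outward potassium channel, stood at 93.4, 92.9, 93.4, 93.7 and 93.2 in the hearts and at 20.9, 19.1, 25.7, 19.3 and 22.4 in the kidneys (difference 2.29, SE 0.04). Gja1, the main gap junction protein of the ventricle, was at 99.5 ± 0.032 in heart and 66.8 ± 3.4 in kidney. Abcc9, a subunit of the ATP-sensitive potassium channel, was at 98.7 ± 0.1 and 63.3 ± 1.5, and Kcnj2, the inward rectifier, at 64.3 ± 2.3 and 8.2 ± 5.0 (SD, n = 5). Scn4b, a sodium channel subunit, was not called (78.4 ± 1.8 and 77.3 ± 1.2, adjusted p = 0.358).

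The cardiac transcription factors were higher in heart for 12 of 13 members, of which Gata4, Myocd and Smyd1 were restricted. Smyd1, a muscle methyltransferase, stood at 93.9, 94.5, 94.2, 94.0 and 94.1 in the hearts and at 4.8, 9.4, 6.1, 6.8 and 6.2 in the kidneys (difference 3.08, SE 0.054). Myocd, the coactivator of serum response factor, stood at 95.2, 93.2, 95, 94.5 and 95.5 in the hearts and at 20.2, 16.9, 16.6, 22.5 and 26.1 in the kidneys. Tbx20 was at 88.1 ± 1.1 in heart and 27.2 ± 3.4 in kidney. Gata6 missed the lower limit through the kidney arrays 4 and 5: its kidney percentiles were 48.9, 37.8, 46.2, 58.9 and 59.7, against 98.0 to 98.3 in the hearts. Hand1 was not called (59.2 ± 0.9 and 58.7 ± 2.0, adjusted p = 0.685).

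All 8 measured members of the list of cardiac hormones and receptors were higher in heart, and 5 were restricted. Nppa, which encodes atrial natriuretic peptide, ranked 18 to 24 from the top of the heart arrays and stood at 23.3, 20.1, 24.4, 22.4 and 24.8 in the kidneys (difference 4.02, SE 0.032, adjusted p = 8.94e-14). Nppb, which encodes the B-type peptide, stood at 99.6, 99.5, 99.6, 99.6 and 99.6 in the hearts and at 45.7, 46.2, 44.2, 41.5 and 46.0 in the kidneys. Corin, the protease that cuts the atrial prohormone, was at 97.0 ± 0.2 and 48.4 ± 2.0. Chrm2, the muscarinic receptor that slows the heart, was at 93.4 ± 0.8 and 30.1 ± 2.6, and Popdc2, a cyclic AMP binding protein of the conduction system, at 99.3 ± 0.034 and 41.6 ± 1.3 (SD, n = 5).

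Energy supply separated the organs by a different margin for each group of enzymes. Of 16 measured members, 15 were higher in heart, yet only Ckm, Ckmt2 and Mb were restricted, and the list's median kidney percentile was 82.2. Mb, the oxygen store myoglobin, ranked 7 in every heart and stood at 30.4, 30.0, 32.6, 29.6 and 26 in the kidneys. The mitochondrial creatine kinase Ckmt2 stood at 17.8, 20.0, 20.6, 17.9 and 18.7 in the kidneys and at 99.9 in every heart (difference 3.97, SE 0.024). Hadha, a subunit of the trifunctional protein of fatty acid oxidation, was at 99.5 ± 0.03 in heart and 95.8 ± 0.1 in kidney, and Cd36, a fatty acid transporter, at 99.8 ± 0.012 and 98.9 ± 0.1. Ppara, the receptor that controls such genes, was not called (92.0 ± 0.7 and 90.7 ± 0.9, adjusted p = 0.0524).

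Of the 107 heart-restricted genes, 32 belonged to a heart list and 73 to no list. Tecrl, linked to inherited arrhythmia, was among the 10 largest differences and stood at 91.9, 93.0, 89.0, 88.3 and 90.2 in the hearts and at 0.6, 0.3, 1.9, 0.8 and 0.1 in the kidneys. The predicted gene Gm5532 stood at 98.0, 97.8, 98.3, 98.1 and 98.0 against 1.0, 2.2, 2.9, 5.6 and 4.9, so the organs were near opposite ends for both. The next genes, apart from Myot, were chosen after their values were seen. Myot, a Z-disc protein, was at 96.9 ± 0.4 and 2.7 ± 0.8, Cav3, the muscle caveolin, at 91.2 ± 0.2 and 14.4 ± 5.9, and Asb14, of a family of muscle ubiquitin ligase adaptors, at 96.1 ± 0.2 and 5.6 ± 2.2 (SD, n = 5). Lmod2 and Lmod3, which nucleate actin, were at 98.7 and 98.3 in heart and at 22.6 and 17.1 in kidney.

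**Figure D2:**
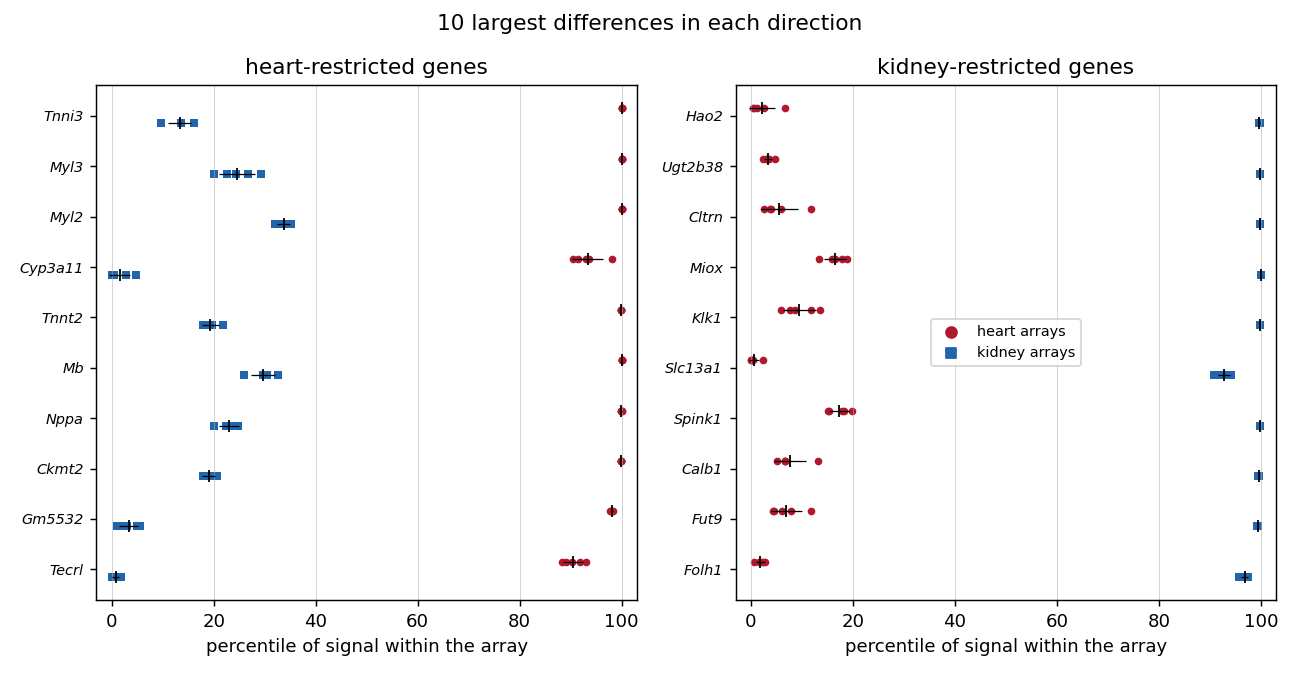
Percentile of signal within the array (x axis) for the 10 heart-restricted and 10 kidney-restricted genes of largest score difference, with 1 point per array and the mean and SD of each group of 5 as a black bar. Hearts are red circles and kidneys blue squares, and that they do not overlap for the 20 genes was required by the definition of restricted. Cyp3a11 shows 1 heart array, at 98.2, above the other hearts.

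Stretches before the start of heart-restricted genes are shown because their DNA carries elements known from muscle promoters. The RefSeq promoter table (GRCm38.p6, made from C57BL/6J and not from BPN/3J) held 86 of the 107 heart-restricted genes and 138 of the 172 kidney-restricted genes, and 15275 of all 19147 named genes. Windows of 300 bases, 250 before to 50 after each start, were searched on both strands for a motif. The CArG box, the element of serum response factor, was found in 8 of 86 heart-restricted genes (9.3%), 3 of 138 kidney-restricted genes (2.17%) and 1.65% of all named genes with a promoter. In the sarcomere list 7 of 22 genes held it (31.8%). The MEF2 site, the element of the myocyte enhancer factors, was found in 15 of 86 heart-restricted genes (17.4%), 1 kidney-restricted gene (0.725%) and 1.94% of all genes. The letters TATAAA were present in 29.1% of heart-restricted, 21% of kidney-restricted and 13.5% of all genes. CArG boxes and MEF2 sites overlapped in 0 restricted genes, and a MEF2 site overlapped TATAAA in 2 heart-restricted genes, Asb14 and Hspb3. A match describes letters in these windows and was not tested for binding. In the 150 bases before the start, capitals mark the CArG box of Myl3 (chr9:110763528-110763677, plus strand, 85 to 76 bases before the start) and Actc1 (chr2:114052876-114053025, minus strand, 47 to 38 bases before the start), and the MEF2 site of Casq2 (chr3:102086265-102086414, plus strand, 69 to 60) and Myoz2 (chr3:123034988-123035137, minus strand, 33 to 24).
Myl3: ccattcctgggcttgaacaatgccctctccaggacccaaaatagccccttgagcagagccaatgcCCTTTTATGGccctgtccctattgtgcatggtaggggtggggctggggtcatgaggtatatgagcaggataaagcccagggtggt
Actc1: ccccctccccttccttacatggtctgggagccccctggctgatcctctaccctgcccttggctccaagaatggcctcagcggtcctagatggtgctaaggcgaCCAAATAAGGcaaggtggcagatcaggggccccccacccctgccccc
Casq2: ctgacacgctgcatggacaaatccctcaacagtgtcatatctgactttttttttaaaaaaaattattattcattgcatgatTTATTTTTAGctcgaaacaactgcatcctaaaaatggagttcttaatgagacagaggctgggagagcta
Myoz2: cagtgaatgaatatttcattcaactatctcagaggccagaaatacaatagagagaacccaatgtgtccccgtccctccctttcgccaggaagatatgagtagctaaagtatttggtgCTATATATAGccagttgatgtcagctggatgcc

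Counts in the kidney lists stand beside 35.1% of all named genes called higher in kidney and 0.898% kidney-restricted. Of the kidney lists, that of the proximal tubule had the largest median difference. All 28 measured members of the list were higher in kidney, 15 were kidney-restricted, and the median difference was -2.48. Miox, which starts inositol breakdown in this segment, ranked 7 to 12 from the top of the kidney arrays and stood at 17.9, 16.5, 13.3, 18.8 and 15.8 in the hearts (difference -4.48, SE 0.046, adjusted p = 2.95e-13). Slc13a1, the sodium sulfate carrier, stood at 93.4, 90.9, 94.1, 92.4 and 92.8 in the kidneys and at 0.2, 0.4, 0.1, 2.4 and 0.0 in the hearts. Slc17a1, a phosphate and urate transporter, stood at 99.8, 99.7, 99.7, 99.8 and 99.7 in the kidneys and at 17.8, 11.6, 13.5, 12.1 and 10.1 in the hearts. Slc6a19, the neutral amino acid carrier of the brush border, stood at 97.3, 95.6, 97.2, 95.9 and 96.5 against 2.6, 2.5, 1.5, 5.3 and 1.2. Every heart array was near the bottom for Slc13a1 and Slc6a19.

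Other apical and basolateral transporters of the segment were restricted with higher heart percentiles. The urate carrier Slc22a12 was at 99.7 ± 0.022 in kidney and 28 ± 2.5 in heart, the organic anion carrier Slc22a6 at 99.3 ± 0.027 and 37.0 ± 2.0, and the endocytic receptor Lrp2 at 99.8 ± 0.019 and 46.3 ± 2.4 (SD, n = 5). Not all members were confined to the lower part of the heart arrays. Aqp1, a water channel also made by endothelium, was at 99 ± 0.1 in heart and 99.7 ± 0.028 in kidney (difference -0.41, adjusted p = 7.75e-08). Cyp2e1, a cytochrome P450, was at 93.4 ± 3.2 in heart and 99.9 ± 0.016 in kidney. Pck1, the enzyme that commits carbon to glucose synthesis, met the limits but varied among hearts: it stood at 18.6, 30.3, 9.0, 32.0 and 49.7 there and at 96.1, 96.8, 94.9, 96.4 and 96.0 in the kidneys.

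The loop of Henle and the distal tubule followed, with 21 of 21 measured members higher in kidney and 5 restricted. Slc12a1, the loop's sodium potassium chloride cotransporter and the target of loop diuretics, stood at 99.9 in every kidney and at 13, 23.7, 25, 22.1 and 24.4 in the hearts (difference -3.93, SE 0.085). Kcnj1, the potassium channel that recycles potassium beside it, stood at 97.5, 97.4, 97.5, 97.4 and 97.3 against 4.4, 7.4, 7.4, 7.7 and 7.4. Calb1, a calcium buffer of the distal convoluted tubule, stood at 99.6, 99.6, 99.5, 99.6 and 99.5 against 6.7, 13.2, 5.2, 6.6 and 6.6 (difference -4.07, SE 0.081). Umod, which encodes the most abundant protein of normal urine, ranked 18 to 25 in the kidneys but stood at 55.3, 55.5, 53.1, 50.4 and 51.2 in the hearts, so it was outside the lower limit. Slc12a3, the thiazide-sensitive cotransporter, differed by less (91.4 ± 0.7 in kidney, 71.5 ± 0.9 in heart), and the 2 groups overlapped for Nos1 although it was called (34.9 ± 3.3 and 27.7 ± 4.2, adjusted p = 0.0157).

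In the collecting duct, 12 of 12 principal cell genes were higher in kidney and 3 were restricted. Aqp2, the vasopressin-regulated water channel, stood at 98.3, 98.6, 98.7, 98.4 and 98.7 in the kidneys and at 51.2, 46.6, 50.5, 46.6 and 50.1 in the hearts. Aqp3, its basolateral partner, stood at 97.5, 97.3, 97.6, 97.2 and 97.5 against 24.4, 48.3, 15.3, 26.7 and 17.0, with heart array 2 above the other hearts. Hsd11b2, which shields the mineralocorticoid receptor from cortisol and corticosterone, was at 96.2 ± 0.3 and 35.7 ± 3.9. The subunits of the epithelial sodium channel were higher in kidney without being restricted: Scnn1a was at 89.4 ± 0.3 and 69.4 ± 2.7, Scnn1b at 84.2 ± 1.0 and 49.6 ± 2.7, and Scnn1g at 83.3 ± 0.5 and 32.8 ± 1.9 (SD, n = 5).

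Among intercalated cells, which secrete acid or base, 12 of 13 members were higher in kidney and 4 were restricted. The proton pump subunit Atp6v0a4 stood at 96.3, 95.6, 96.7, 96.4 and 96.6 in the kidneys and at 22, 20.1, 21.4, 22.7 and 25.9 in the hearts (difference -2.55, SE 0.039). Slc26a4, the chloride bicarbonate exchanger pendrin, stood at 91.8, 91.3, 91.5, 91.2 and 91.4 against 19.2, 17.6, 18.4, 16.0 and 13.1. The pump subunit Atp6v1b1 (90.4 ± 0.4 and 31.0 ± 1.2) and the ammonia channel Rhcg (92.5 ± 0.5 and 43.9 ± 2.3) were the other restricted members. Aqp6 was not called (59.3 ± 4.3 and 55.9 ± 2.6, adjusted p = 0.169).

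Podocyte genes did not separate the organs as a group. Of 10 measured members, 4 were higher in heart, 4 were higher in kidney, 2 were not called and 0 were restricted. Over all named genes, 35.5% were higher in heart and 35.1% in kidney, so these counts were near the shares of any genes. Nphs1, which encodes nephrin of the slit diaphragm, was at 67.9 ± 0.8 in kidney and 54.6 ± 2.3 in heart (difference -0.35, adjusted p = 1.5e-06). Npnt, a basement membrane ligand also made by tubules, differed most toward kidney (94.8 ± 0.5 and 54.3 ± 4.0). In the other direction Plce1, a phospholipase also known from heart muscle, was at 81.3 ± 0.5 in heart and 59.7 ± 1.5 in kidney. Podxl, which endothelium also makes, was at 94.2 ± 0.6 and 92.1 ± 0.5, and Wt1, a factor of podocytes and of the epicardium, at 67.5 ± 2.6 and 58.9 ± 1.4. The groups overlapped for Kirrel (66.1 ± 0.8 in heart, 63.6 ± 1.1 in kidney, adjusted p = 0.0157), and Kirrel2 was low in both organs (10.5 ± 2.2 in heart, 14.3 ± 2.2 in kidney).

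Kidney transcription factors were higher in kidney for 12 of 14 measured members, 0 of them restricted. Hnf4a, the nuclear receptor of the proximal tubule and liver, stood at 99.5, 99.6, 99.5, 99.5 and 99.5 in the kidneys and at 71.8, 70.2, 70.1, 70.0 and 67.6 in the hearts (difference -2.07, SE 0.025). Sim1 was at 72.9 ± 2.3 in kidney and 16.4 ± 1.7 in heart, and Emx1 at 73.0 ± 1.6 and 18.2 ± 2.4. Pax8, which marks tubule epithelium, was at 93.0 ± 0.7 and 58.8 ± 0.5. Esrrb was called higher in heart by its probe set of highest mean (74.9 ± 1.0 and 72.7 ± 0.81, difference 0.07, adjusted p = 0.0198). Its other probe set went the opposite way (20.8 ± 1.8 in heart, 41.1 ± 3.2 in kidney, difference -0.59), the arrays overlapped for the first, and without kidney arrays 4 and 5 its difference was 0.05 and was no longer called. Irx3 was not called (96.1 ± 0.6 and 95.6 ± 0.7, adjusted p = 0.324).

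Of 9 measured kidney hormones and enzymes of hormone systems, 8 were higher in kidney. Klk1, tissue kallikrein, ranked 54 to 66 from the top of the kidney arrays and stood at 13.6, 8.6, 7.7, 11.8 and 5.8 in the hearts (difference -4.29, SE 0.079). Kl, the fibroblast growth factor 23 coreceptor klotho, stood at 97.4, 97.0, 97.1, 97.1 and 97.4 in the kidneys and at 48.2, 42.5, 41.4, 44.3 and 38.9 in the hearts. Both were restricted. The vitamin D enzymes varied among kidneys: Cyp27b1, which activates the hormone, stood at 73.2, 67.6, 52.8, 63.8 and 43.2, and Cyp24a1, which breaks it down, at 88.3, 76.2, 82.1, 77.4 and 76.6. The hearts stood at 18.7 to 27.9 and 22.5 to 34.3, so neither gene overlapped between organs. Epo, which encodes erythropoietin, was low and not called (12.6 ± 2.1 in heart, 12.5 ± 3.0 in kidney, adjusted p = 0.872).

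Of the 172 kidney-restricted genes, 29 belonged to a kidney list and 142 to no list. Hao2, a peroxisomal hydroxy acid oxidase, had the largest difference among the kidney-restricted genes and stood at 99.7, 99.6, 99.8, 99.7 and 99.7 in the kidneys and at 1.1, 6.6, 0.5, 2.5 and 0.3 in the hearts (difference -4.99, SE 0.21, adjusted p = 5.73e-09). Normal scores spread out ranks near the bottom of an array, so the order of the largest differences rests partly on small differences in low signal. Cltrn, the collectrin that brings amino acid carriers to the brush border, stood at 99.9 in every kidney and at 3.7, 5.9, 2.6, 4.0 and 11.7 in the hearts. Ugt2b38, of a family of near-identical glucuronosyltransferases that a probe set may not separate, stood at 99.9 in every kidney and at 4.7, 2.4, 3.5, 3.2 and 2.9 in the hearts. Spink1, a trypsin inhibitor, was at 99.9 ± 0.007 and 17.3 ± 2.0, Fut9, a fucosyltransferase, at 99.4 ± 0.1 and 6.9 ± 3.1, and Folh1, a carboxypeptidase that acts on folate, at 96.8 ± 0.7 and 1.9 ± 0.8 (SD, n = 5). Chosen after their values were seen, epithelial genes among the restricted set included the cadherins Cdh1 (96.2 in kidney, 27.3 in heart) and Cdh16 (99.8 and 26), the tight junction genes Cldn2 (99.6 and 35.9) and Cldn8 (94.2 and 12.2), and Pkhd1, the gene of recessive polycystic kidney disease (93.1 and 5.6).

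Kidney promoters are shown for the HNF1 motif, since the hepatocyte nuclear factors 1 are regulators of tubule genes. The letters GTTAATNAT were found in 11 of 138 kidney-restricted genes (7.97%), 0 of 86 heart-restricted genes and 0.759% of all named genes with a promoter. The HNF4 motif CAAAGTCCA was found in 5 kidney-restricted genes (3.62%), 2 heart-restricted genes (2.33%, Cyp3a11 and Reep1) and 0.517% of all. The estrogen-related receptor motif TCAAGGTCA was found in 0 restricted genes and 0.354% of all. In the proximal tubule list 1 of 26 genes (3.85%) held the HNF1 motif. HNF1 motifs overlapped HNF4 motifs or TATAAA in 0 restricted genes. Capitals mark the HNF1 motif in the 150 bases before a start of Cltrn (chrX:164090037-164090186, plus strand, 54 to 46 bases before the start), Kcnj16 (chr11:110967883-110968032, plus strand, 17 to 9) and Atp6v0a4 (chr6:38124587-38124736, minus strand, 62 to 54), and the HNF4 motif before 1 start of Agxt2 (chr15:10358383-10358532, plus strand, 21 to 13). Cltrn and Atp6v0a4 show the motif on the gene's strand, and Kcnj16 shows it on the other strand. Kcnj16, a potassium channel subunit of the distal tubule, was at 99.3 ± 0.046 in kidney and 27.5 ± 4.8 in heart, and Agxt2, a mitochondrial aminotransferase, at 95.7 ± 0.2 and 48.9 ± 3.0.
Cltrn: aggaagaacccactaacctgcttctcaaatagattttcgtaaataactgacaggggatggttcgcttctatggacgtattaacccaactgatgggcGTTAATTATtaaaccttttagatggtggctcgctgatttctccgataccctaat
Kcnj16: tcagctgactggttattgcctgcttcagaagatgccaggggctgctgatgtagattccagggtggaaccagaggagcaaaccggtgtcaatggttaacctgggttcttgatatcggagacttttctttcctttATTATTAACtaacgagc
Atp6v0a4: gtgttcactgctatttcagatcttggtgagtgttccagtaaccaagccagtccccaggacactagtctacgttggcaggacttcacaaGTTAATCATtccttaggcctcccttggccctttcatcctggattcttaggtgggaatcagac
Agxt2: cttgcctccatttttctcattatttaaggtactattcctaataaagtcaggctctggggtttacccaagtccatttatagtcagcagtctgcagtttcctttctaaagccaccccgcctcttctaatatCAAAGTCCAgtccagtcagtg

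Pairs of related genes were compared next, with the member listed first usually a form typical of striated muscle. Of 22 listed pairs, 15 had both members measured. The first member was higher in heart in 13 pairs and the second was higher in kidney in 11, with both in 9 pairs. Of all named genes, 35.5% were called higher in heart and 35.1% higher in kidney. Idh3a and Idh1, and Ryr2 and Itpr3, are related enzymes or channels rather than forms of the same protein, and Idh3a is no muscle form. Without these pairs, a choice made after seeing the data, the counts were 11, 10 and 8 of 13. The respiratory chain showed this for 3 subunits of cytochrome c oxidase. Cox6a2 was at 100.0 in heart and 78.6 in kidney while Cox6a1 was at 97.1 and 99.8, Cox7a1 was at 99.8 and 85.3 while Cox7a2 was at 40.4 and 46.7, and Cox8b was at 99.9 and 79.2 while Cox8a was at 98.0 and 99.5. The creatine kinases split likewise: the differences were 3.32 for Ckm and -0.34 for Ckb, and 3.97 for Ckmt2 and -1.47 for Ckmt1. Cpt1b and Cpt1a, the muscle and liver forms of the enzyme that admits fatty acids to mitochondria, differed by 1.59 and -1.02.

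The pairs were not uniform. In 3 pairs both members were higher in heart: Pfkm and Pfkp (1.45 and 0.22), Hk2 and Hk1 (1.99 and 0.22), and Ryr2 and Itpr3 (3.29 and 0.1). Fbp1, the gluconeogenic fructose bisphosphatase, differed by -2.86, whereas the muscle form Fbp2 was not called (86.2 in heart, 84.7 in kidney). Ampd1, the skeletal muscle AMP deaminase, was low in both organs and higher in kidney (difference -0.23), although the arrays overlapped and the call was lost when all groups of the series shared the spread. Slc2a2, the glucose carrier of proximal tubule and liver, was kidney-restricted: its hearts stood at 39.9, 36.8, 34.3, 17.0 and 23.5 and its kidneys at 98.8, 98.4, 98.6, 98.6 and 98.5.

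**Figure D3:**
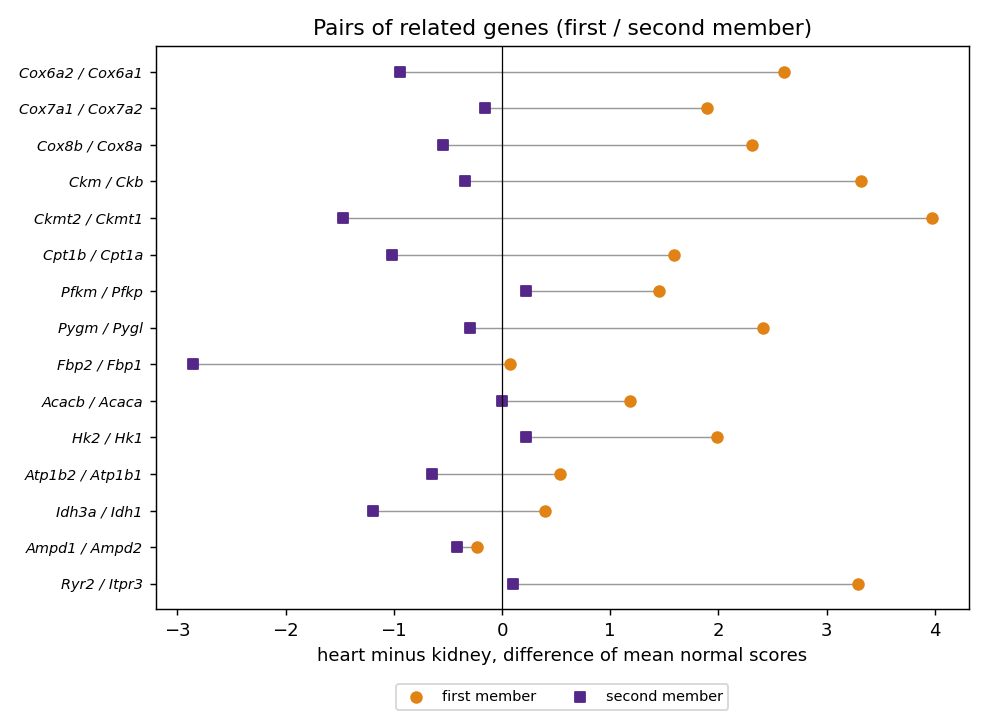
Difference of mean normal scores, heart minus kidney (x axis), for the 15 gene pairs with both members measured, 1 row per pair. Orange circles mark the member named first and purple squares the member named second, and the circle lies to the right of the square in every row.

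Markers of other cells were read in the same arrays, since organs contain more than their defining cells. The counts below stand beside 35.5% of all named genes called higher in heart and 35.1% called higher in kidney. Endothelial genes were higher in heart for 10 of 11 members and macrophage genes for 8 of 10. Vwf, the endothelial clotting protein, was at 78.7 ± 1.3 in heart and 28.4 ± 7.0 in kidney, and Cd163, a scavenger receptor of resident macrophages, at 80.4 ± 1.8 and 33.1 ± 2.4 (SD, n = 5). Of 8 lymphocyte genes, 6 were higher in heart and 0 in kidney, with Cd3d at 56.4 ± 3.6 and 33.3 ± 5.5. Smooth muscle genes were higher in heart for 7 of 8 members: Actg2 was at 90.4 ± 2.1 and 34.9 ± 4.1, Acta2 at 61.0 ± 2.5 and 14.8 ± 3.7, and only Mylk was higher in kidney (90.4 ± 1.1 and 94.2 ± 0.5). Skeletal muscle genes were mixed, with 5 of 10 higher in heart and 2 in kidney, of which 1 was left without heart array 3, 4 or 5, without any single kidney array, and under several other settings. The adult fast myosins Myh1 (22 ± 3.9), Myh2 (12.6 ± 1.1) and Myh4 (11.2 ± 2.1) were low in the hearts. Of 3 measured red blood cell genes, Alas2 was higher in heart (94.1 ± 0.6 and 69.0 ± 5.3), and Slc4a1, which intercalated cells also use, was higher in kidney. Among 12 reference genes 3 were higher in heart and 6 in kidney, with score differences between -0.35 for Eef1a1, whose call was lost without heart array 1, 3 or 5 or kidney array 2 or 3, and 0.34 for Rplp0.

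Most adipocyte markers were not called between the organs, and the list's median varied among arrays of an organ. Of 8 measured members, 2 were higher in heart and 6 were not called, beside 35.5% of all named genes called higher in heart. The list's median ranged from 58.7 to 85.3 over the hearts and from 69.3 to 78.4 over the kidneys. Cidea, of the same list, did not overlap between organs, whereas the 2 genes given next overlapped. Adipoq, which encodes adiponectin, stood at 79.1, 92.0, 67.2, 85.3 and 95.5 in the hearts and at 84.4, 83.5, 84.8, 88.0 and 85.4 in the kidneys. Ucp1, the uncoupling protein of brown fat, stood at 46.9, 78.6, 40.7, 81.3 and 72.1 in the hearts and at 75.8, 76.4, 62.7, 69.6 and 58.7 in the kidneys. Heart arrays 1 and 3 were lowest for both genes. Pck1, which fat also makes, was lowest in the same 2 hearts, and the part of fat in its heart values was not tested.

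Kidney arrays 4 and 5 carried adrenal transcripts, which was known from an earlier look at these same data. The counts here describe those arrays and are no separate evidence for it. Of 12 measured adrenal cortex genes, 11 were higher in arrays 4 and 5 than in each of arrays 1 to 3. So were 5 of 9 adrenal medulla genes, against 11.7% of all named genes. Fdx1, counted among the 11, stood at 98.8 in arrays 4 and 5 against 98.5 to 98.7 in arrays 1 to 3. Cyp11b1, which completes corticosterone synthesis, stood at 3.1, 14.6, 21.2, 82.8 and 89.1 in the kidneys and at 0.9 to 2.3 in the hearts. Star, which moves cholesterol into mitochondria, stood at 36.1, 34.9, 47.4, 89.9 and 93.1, and Hsd3b1, a steroid dehydrogenase, at 47.2, 56.1, 66.6, 92.6 and 94.8. Chgb, a granin of chromaffin cells, stood at 38.0, 40.7, 43.9, 75.2 and 82.0. The medulla's enzymes moved less: Th, the first enzyme of catecholamine synthesis, stood at 37.7, 38.2, 37.2, 52.3 and 52.0, and Pnmt at 20.8, 26.1, 21, 24.4 and 31.6. The cortex list's median was 30.2 to 32.9 over the hearts, 37.4 to 44.5 over kidney arrays 1 to 3, and 80.6 and 85.1 in arrays 4 and 5.

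Without kidney arrays 4 and 5, 6 rather than 5 adrenal cortex genes were called higher in kidney. Star kept a difference of -0.4 (adjusted p = 0.00366), against -1.06 (adjusted p = 0.0274) with all arrays, and it was not called when kidney array 4, kidney array 5 or heart array 3 alone was left out. Cyp11b1 went from -1.77 to -0.84. Cyp21a1, a hydroxylase of the same pathway, was not called with all arrays (adjusted p = 0.0641) and was called without the 2. The sets described above hardly moved: 168 heart-restricted and 223 kidney-restricted probe sets were found without the 2 arrays, of which 162 and 221 were also found with them. Of the adrenal lists only Slc18a1, the vesicular monoamine transporter of chromaffin cells, was kidney-restricted. It stood at 97.8, 97.2, 97.4, 97.6 and 97.6 in the kidneys, so arrays 4 and 5 were no higher, and at 14.9, 10.8, 12.7, 6.5 and 18.2 in the hearts. Dbh, another chromaffin gene, was higher in heart (66.7 ± 1.2 and 20.1 ± 4.9).

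Most measured members of a short hepatocyte list, but not all, were higher in heart than in kidney. Of 9 measured hepatocyte genes, 6 were higher in heart, 1 was higher in kidney and 2 were not called. Over all named genes, the shares were 35.5% higher in heart and 35.1% higher in kidney. Alb, which encodes serum albumin, stood at 99.4, 97.5, 98.2, 96.9 and 97.4 in the hearts and at 58.3, 54.2, 59.2, 57.7 and 58.8 in the kidneys. Outside the list, Mup3, of the near-identical major urinary protein family, stood at 98.5, 91.7, 93.4, 89.9 and 91.4 against 2.0, 3.2, 3.6, 4.9 and 3.4. Cyp3a11, a liver P450 of a family of close paralogs, stood at 98.2, 93.0, 93.6, 90.4 and 91.4 against 0.0, 0.0, 4.7, 2.7 and 0.4 (difference 4.17, SE 0.35, adjusted p = 1.95e-06), and it was among the 10 largest heart-restricted differences. All 9 measured list members were highest in heart array 1, against 20.0% of all named genes. There the list's median was 80.5 against 68.5 to 74.1 in the other hearts and 47.2 to 48.4 in the kidneys. Their source was not tested. The list's median in BPH hearts ranged up to 83.9 and in BPL hearts up to 87.5, each in 1 array. Without heart array 1, 162 probe sets were heart-restricted and 235 were kidney-restricted.

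Of the 163 heart-restricted probe sets, 7 stood at 90 or more in BPN liver: Mup3, Apoa2, Cyp3a11, Hamp, Hjv, Ppp1r3c and Homer2. Hamp, which encodes the iron hormone hepcidin, stood at 97.9, 97.9, 96.4, 97.4 and 96.9 in the hearts and at 31.5, 33.1, 32.8, 34.2 and 34.3 in the kidneys. Hjv, the coreceptor that controls it, stood at 97.6, 97.7, 97.4, 97.6 and 97.7 against 34.2, 44.2, 36.3, 30.3 and 30.7. Neither gene set heart array 1 apart, unlike Mup3, Cyp3a11 and Apoa2.

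**Figure D4:**
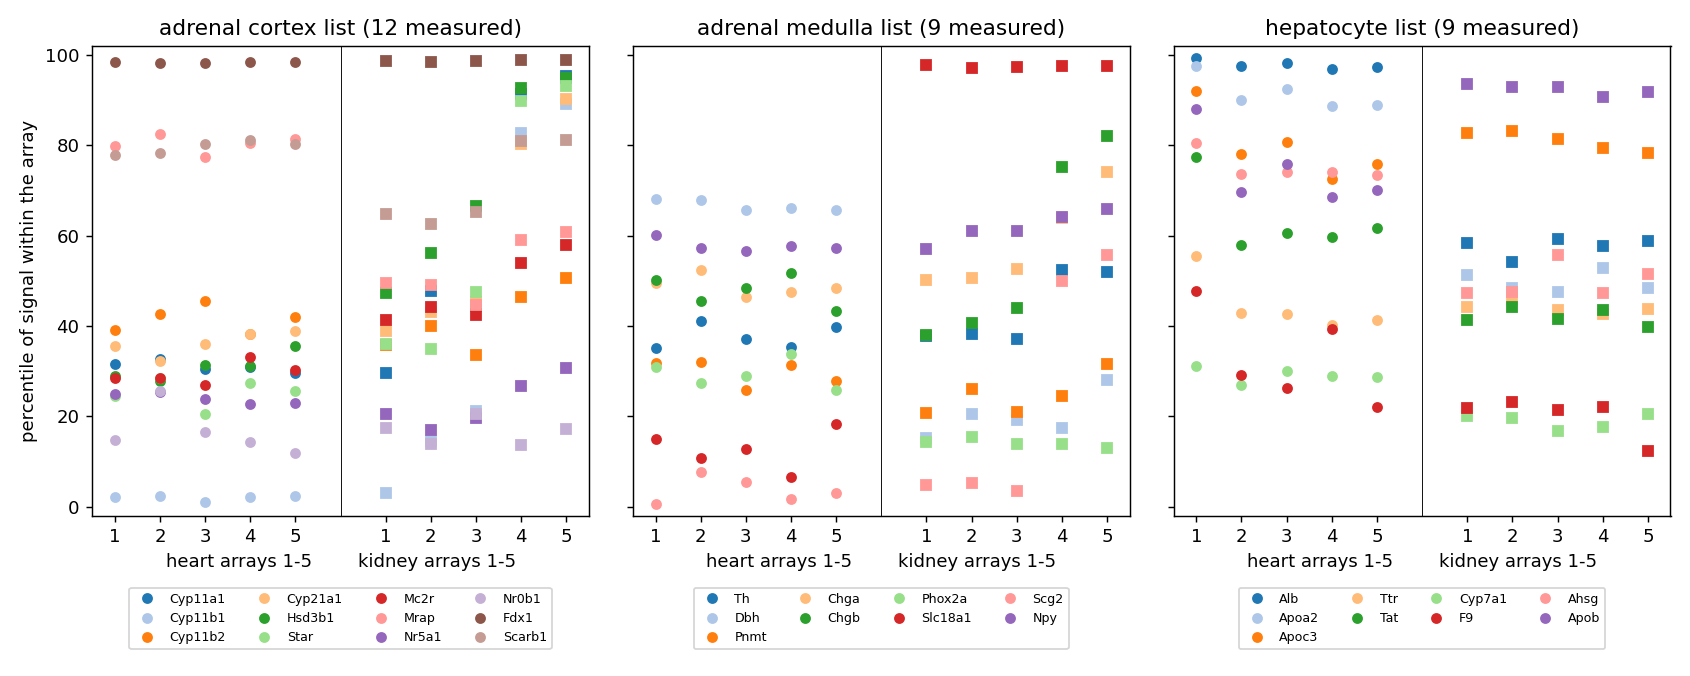
Percentile of signal within the array (y axis) for measured members of the adrenal cortex, adrenal medulla and hepatocyte lists, with 1 point per gene in each heart array (circles, left) and kidney array (squares, right). Kidney arrays 4 and 5 stand above kidney arrays 1 to 3 for 11 of 12 cortex members (11.7% of all named genes do so), and heart array 1 is the highest heart for all 9 hepatocyte members (20.0% of all named genes). Kidney arrays 4 and 5 were known to carry adrenal transcripts before these counts were made.

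The restricted probe sets were then read in arrays that had no part in choosing them. In BPH mice 143 of the 163 heart-restricted probe sets met both percentile limits, and in BPL mice 138 did. All hearts stood above all kidneys for 163 of 163 in either strain, against 28.1% of all probe sets in BPH and 28.7% in BPL. Of the 228 kidney-restricted probe sets, 197 met the limits in BPH and 204 in BPL, and all kidneys stood above all hearts for 227 and 228, against 25.5% and 25.9% of all probe sets. The median kidney percentile of the kidney-restricted set was 96.2 in BPN, 96.1 in BPH and 96.1 in BPL, and the median heart percentile of the heart-restricted set was 96.7, 96.9 and 96.6.

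A few members stood at other percentiles in the other strains, and the strains' differences were not tested here. With 1 probe set per named gene, Pck1 gave the largest shift. Its mean heart percentile was 27.9 in BPN, 15.3 in BPH and 57.8 in BPL. The SDs were 15.3, 15.5 and 20.9 (n = 5 each), while the Pck1 kidney means stood at 94.6 to 96.0. Lum, a collagen-binding proteoglycan, had a kidney percentile of 33.3 in BPN and 60.6 in BPL, with hearts at 95.5 and 93.9. Kcnk1, a potassium leak channel, stood at 95.9 in BPN kidney and 87.7 in BPH kidney, and at 40.3 and 60.5 in the hearts of those strains. Bcat1, a branched-chain aminotransferase, stood at 97.1 in BPN kidney and 68.2 in BPL kidney. Slc16a14, of the monocarboxylate carrier family, was at 95.7 in BPN kidney, 79.4 in BPH and 77.9 in BPL. Single probe sets shifted by more than Pck1. An unnamed kidney-restricted probe set stood at 97.9 in BPN kidney and far below the others in the other strains, at 7.3 in BPH and 8.6 in BPL. Another kidney-restricted probe set stood at 92.7 in BPN kidney, 94.1 in BPH and 32.1 in BPL.

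In BPN liver 7 of 163 heart-restricted probe sets stood at 90 or more and 122 at 50 or less. Of 228 kidney-restricted probe sets, 59 stood at 90 or more and 114 at 50 or less. The middle of every array stands at 50 by the scale itself. The liver median was 34.9 for the heart-restricted set and 50.1, near that middle, for the kidney-restricted set. Shares of all probe sets at these limits were not counted for liver or aorta. In heart and kidney, 3831 and 3818 of all 38385 probe sets had a mean of 90 or more. The kidney-restricted set held more probe sets that were high in liver than the heart-restricted set did. Slc27a2, which activates fatty acids (99.5 in liver), Aldh8a1, an aldehyde dehydrogenase (99.5), and Pipox, a peroxisomal oxidase (98.8), were among the kidney-restricted genes that were high in liver. Hao2 (3.3 ± 3.9, SD, n = 5), Folh1 (5.7) and Cltrn (14.3) were low there. Aorta, amplified by another protocol, gave 30 of the 163 at 90 or more and 53 at 50 or less, and 1 and 163 of the 228. In both liver and aorta, 41 heart-restricted and 85 kidney-restricted probe sets stood at 50 or less, a joint share that was not counted over all probe sets.

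**Figure D5:**
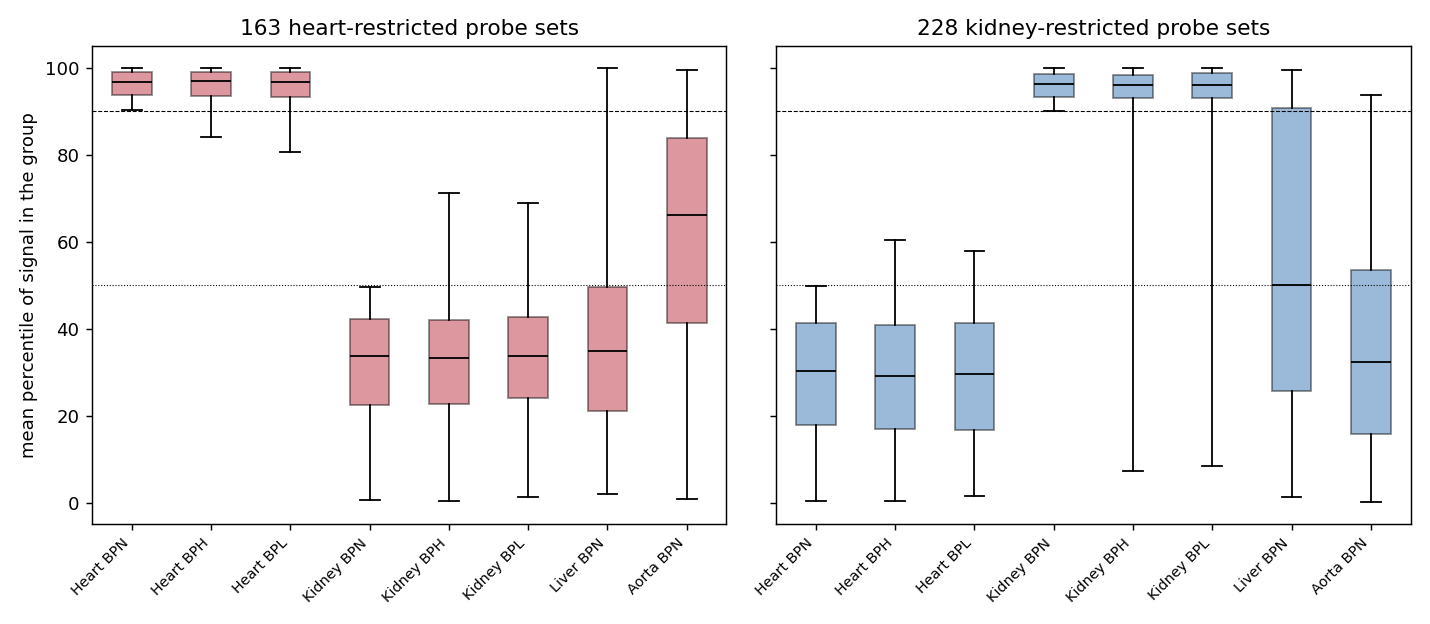
Mean percentile in each group (y axis) of the 163 heart-restricted (left, red) and 228 kidney-restricted (right, blue) probe sets, as boxes from the lower to the upper quartile with the median as a line and whiskers to the extremes. Dashed and dotted lines mark the limits of 90 and 50, and the BPH and BPL groups of an organ have medians within 96.1 to 96.9 where that organ is high, while the aorta median of the heart-restricted set is 66.2.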

How the data were processed

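The intensities deposited by the authors are RMA values on a linear scale, per the submitters' processing notes; the chip definition and version are not given in the sources used here. Array medians were close within a tissue and differed between tissues. Each array was ranked over its 38385 probe sets, and normal scores of the ranks were fitted with limma 3.58.1 in R 4.3.3 (lmFit, eBayes) on the 5 heart and 5 kidney arrays, with no filter and Benjamini-Hochberg adjustment, called below 0.05. The script was tested on simulated data. Symbols came from the platform annotation, and 24237 probe sets matched RefSeq by Entrez identifier. The number of arrays limits the precision.

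Members, gene lists and tests were chosen with earlier results of these data known. Text names the 10 largest differences among restricted genes of each organ, 4 members of each organ list by difference and every member called the opposite way, 2 of each other list, gene pairs and 17 fixed genes; others were named after their values were seen. Alternatives covered the scale tested, a low-signal filter, limits, probe set choice, shared spread, a replicate block and each array left out.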

Additional observations from a re-analysis of the deposited data

Results flagged for a closer look

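In groups of 5 arrays, 272 groups of 136 named genes were examined for an array whose gap to its nearest neighbour was large against the group's range, and 24 had one. Chance gives about 5% of groups. Values are percentiles of the array named. No explanation was weighed.

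Hearts gave most of them. Array 1 was high for Ahsg (80.5) and Tat (77.4) of the hepatocyte list and for Fbp1 (79.8) of the proximal tubule list. The other hearts stood at 74.1, 61.7 and 68.4 at most for these genes. Array 1 was low for Kcnj1 (4.4), Slc12a1 (13) and Pfkp (93.5). Array 2 was high for Calb1 (13.2), Casq2 (99.48), Cd163 (83.6), Elf5 (19.2) and Wt1 (72.0), and low for Cox6a2 (99.96). Array 3 was high for Mylpf (59.2) and low for Cyp11b1 (0.9). Array 4 was low for Ckmt2 (99.9) and high for Slc13a1 (2.4), and array 5 was high for Atp6v1b1 (33.1) and Fabp4 (99.41). The gaps for Casq2, Cox6a2, Ckmt2 and Fabp4 span less than 1 percentile point.

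Among kidneys, array 1 was high for Kirrel2 (18.2) and low for Tbx20 (21.3), array 2 was high for Actg2 (42.1) and Cox7a1 (86.7), array 4 was high for Emx1 (75.8), and array 5 was low for Cidea (73.3). Each of these arrays lay outside the range of the other 4 kidneys, and none of the 6 genes overlapped between organs.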

How the results depend on the processing

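Counts of called probe sets stayed within 1.5 times the main counts under the other scales, the shared spread and a threshold of 0.01, except that restricting the test to probe sets in the upper part of 5 or more arrays gave 8044 higher in kidney (8846 in heart), with fewer probe sets tested. The share of calls in heart was 51.2% to 53.5%. Limits set the size of the restricted sets: 95 and 50 gave 105 heart and 144 kidney probe sets, 90 and 25 gave 49 and 90, and 80 and 50 gave 304 and 400. With the probe set of largest difference in place of that of highest mean, Tpm1 turned to 4.55 and Esrrb to -0.59; of 3958 genes with several probe sets, 439 had probe sets called in both directions, and the cause was not tested. Leaving out each array in turn gave 160 to 166 heart and 225 to 235 kidney probe sets. Deviations of same-numbered hearts and kidneys correlated at -0.0025 to 0.061, against -0.058 to 0.042 for other numbers, and 2 of 5 hearts matched best with their own number. This does not settle whether they share a mouse, and the numbers were not used to pair samples; a replicate block gave 12826 and 12175 calls and 163 and 228 restricted probe sets. Ranks leave little room near the top of an array, where signal may also saturate. Near the bottom, normal scores turn small differences in low signal into large ones.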
